A study of Mus musculus with 2 samples.

Results

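The Nduf genes encode the nuclear-made subunits of respiratory complex I, and all 37 genes whose symbol begins with Ndufa, Ndufb, Ndufc, Ndufs or Ndufv followed by a number were taken from the 31053 genes of the feature list, leaving out pseudogene copies with the suffix -ps. Their transcripts were counted as unique molecular identifiers (UMIs) in 2 droplet libraries of bone marrow from C57BL/6 mice of 6 months with atherosclerosis as the disease label. One library carries the genotype Apoe(-/-), Itgb3(-/-) and is called null-labelled here. The other carries Apoe(-/-), Itgb3(+/+) and is called control-labelled, so both lack Apoe, a carrier of plasma lipoproteins, by label and differ in Itgb3, which encodes integrin β3. The sources used here give neither the number of animals per library nor the part of Itgb3 that the null allele lacks. With 1 library per genotype there is no replicate and no test between genotypes, and every 95% interval below covers counting error only. Where 2 values stand side by side, the null-labelled one comes first.

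Complex I is the first enzyme of the mitochondrial respiratory chain: it takes electrons from NADH, passes them through a flavin and a row of iron-sulfur clusters to ubiquinone, and pumps protons across the inner membrane. Its catalytic core is made partly from nuclear genes (Ndufv1 and Ndufs3 among them) and partly from mitochondrial genes (the mt-Nd genes), and accessory subunits surround the core in the NADH-binding N module, the quinone-binding Q module and the proximal and distal parts of the membrane arm. In the marrow, proliferating progenitors rely on respiration, whereas maturing neutrophils carry few active mitochondria and maturing red cells clear theirs altogether.

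The filters left 2903 null-labelled cells with 33570111 UMIs (median 9321) and 8595 control-labelled cells with 59003767 UMIs (median 4812). Itgb3 itself was measured at 248 UMIs (7.39 CPM, a gene's UMIs scaled to the same total in every group of cells) and 1391 UMIs (23.6 CPM), 3.19-fold lower by label (2.79 to 3.67), but a 3′ count outside a deleted part does not check a label. The libraries stand apart in ways that touch every comparison: 142 of the 151 sub-clusters were at least 90% cells of a single library, and in none of the 8 named classes compared below did a sub-cluster hold 10 or more cells of both. The summed level of 18 interferon-response genes was 10864 CPM and 1059 CPM, and 11 barcodes were shared between the libraries as deposited, 6 among the cells kept. Of the marker genes for each class compared, between 6 and all 8 of 8, or all of a shorter list, reached 20 CPM in the class in each library, and a class is called X-like for that reason.

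A few promoter stretches are shown because they belong to the members at the ends of the range of CPM ratios in erythroid-like cells described below. In CPM, Ndufa6 differed least between the libraries, and Ndufb2 and Ndufc1 differed most. Under another scaling given below, Ndufa6 was at a ratio of 2.07, so its place holds in CPM only. Each stretch is the part of the 250 bases before the RefSeq start (GRCm38.p6) that lies in no annotated exon, on the gene's strand. Capitals mark a match to 1 of 4 motifs searched on both strands.
Ndufa6, chr15:82354323-82354541, minus strand: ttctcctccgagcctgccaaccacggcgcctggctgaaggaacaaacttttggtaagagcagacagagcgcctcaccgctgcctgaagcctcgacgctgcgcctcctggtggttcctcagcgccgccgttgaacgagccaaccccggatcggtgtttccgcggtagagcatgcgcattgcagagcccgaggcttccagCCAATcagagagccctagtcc
Ndufb2, chr6:39592315-39592564, plus strand: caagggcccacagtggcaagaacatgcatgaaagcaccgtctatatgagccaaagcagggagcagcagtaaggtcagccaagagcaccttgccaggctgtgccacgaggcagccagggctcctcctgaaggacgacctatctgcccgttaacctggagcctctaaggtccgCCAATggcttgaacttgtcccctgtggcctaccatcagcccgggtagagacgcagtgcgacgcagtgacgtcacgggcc
Ndufc1, chr3:51408989-51409205, minus strand: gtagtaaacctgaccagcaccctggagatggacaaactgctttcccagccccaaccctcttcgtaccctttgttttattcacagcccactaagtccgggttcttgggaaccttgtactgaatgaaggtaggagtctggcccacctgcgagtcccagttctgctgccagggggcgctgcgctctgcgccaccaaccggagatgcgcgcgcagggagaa
Both Ndufa6 and Ndufb2 hold 1 CCAAT box, at 52 and 79 bases before the start, and no match lies in the 250 bases before Ndufc1. The motifs were the NRF1 consensus, CCGGAAG for ETS factors, AANATGGCG for YY1 and CCAAT, each named for factors known to act at promoters of respiratory genes or of many genes. Among the 32 members with a promoter window, 6 (18.8%) held the NRF1 motif, against 3.74% of all 32851 windows of the same length, 3 (9.38%) the ETS motif against 6.91%, 2 (6.25%) the YY1 motif against 1.12%, and 10 (31.3%) CCAAT against 33.9%. A member counted if any of its windows matched (34 windows for the 32 members), while the background counts single windows, a difference that favours the members. No member's window held 2 different motifs that overlapped. These are matches of letters, not sites, and the windows of Ndufs3 and Ndufb11, which lie over exons of neighbouring genes (Kbtbd4 and Rbm10), are not printed.

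Over all cells, 36 of the 37 members were detected and passed the filter of 30 UMIs over both libraries and a mean of 20 CPM. Ndufa4l2, a paralogue of Ndufa4 known as a hypoxia-induced gene, had 0 UMIs in every barcode of both libraries, which allows at most 0.0894 CPM and 0.0508 CPM. UMIs from 3′ ends do not grow with transcript length, so members are set side by side as CPM. Whether transcripts of different genes were captured equally well was not tested, so the order is one of UMIs. Ndufa4, a subunit first placed in complex I and later assigned to complex IV, was the highest member in both libraries at 377.9 CPM and 587.9 CPM. Ndufb9, of the distal membrane arm, was at 258.3 CPM and 366.9 CPM, and Ndufb7, of the same part, at 265.9 CPM and 328.8 CPM. The lowest detected members were Ndufs1, the large iron-sulfur subunit of the core, at 29.6 CPM and 44.4 CPM, Ndufa9 of the Q module junction at 30.95 CPM and 55.9 CPM, and in the null-labelled library Ndufb2 at 50.3 CPM (106.4 CPM in the control-labelled). The 7 core genes together gave 10.7% and 10.3% of the Nduf UMIs, so most of the signal came from accessory subunits and Ndufa4.

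Core genes were also read one by one over all cells. Ndufv2, an iron-sulfur subunit of the N module, was at 115.6 CPM and 133.5 CPM. Ndufv1, which binds NADH and the flavin, was at 53.6 CPM and 71.8 CPM. Ndufs7 and Ndufs8, which carry the last iron-sulfur clusters before quinone, were at 80.96 CPM and 124.2 CPM and at 56.9 CPM and 81.1 CPM. All 4 were lower in the null-labelled library. Ndufs3, a core subunit at the junction of the Q module, went the other way, at 99.3 CPM and 79.9 CPM.

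Summed over the 37 members, all cells of the null-labelled library gave 156899 UMIs (4674 CPM) and those of the control-labelled library 362347 UMIs (6141 CPM), 1.31-fold lower (1.306 to 1.32). Of 36 tested members 34 were below equal (26 with TMM factors, which scale to the bulk of genes), yet only Ndufb2 was 2-fold or more lower (50.3 CPM and 106.4 CPM, 2.11-fold, 2.003 to 2.23; a ratio of 0.556 with TMM factors, which leaves 0 of 36 past 2-fold) and none 2-fold higher, where 10.2% of all 5008 genes tested were 2-fold lower and 6.31% 2-fold higher. The members' median log2 ratio was -0.39 and that of all genes -0.18. This total mixes cell types that the libraries hold in different shares, so the classes are compared one by one below.

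**Figure D1:**
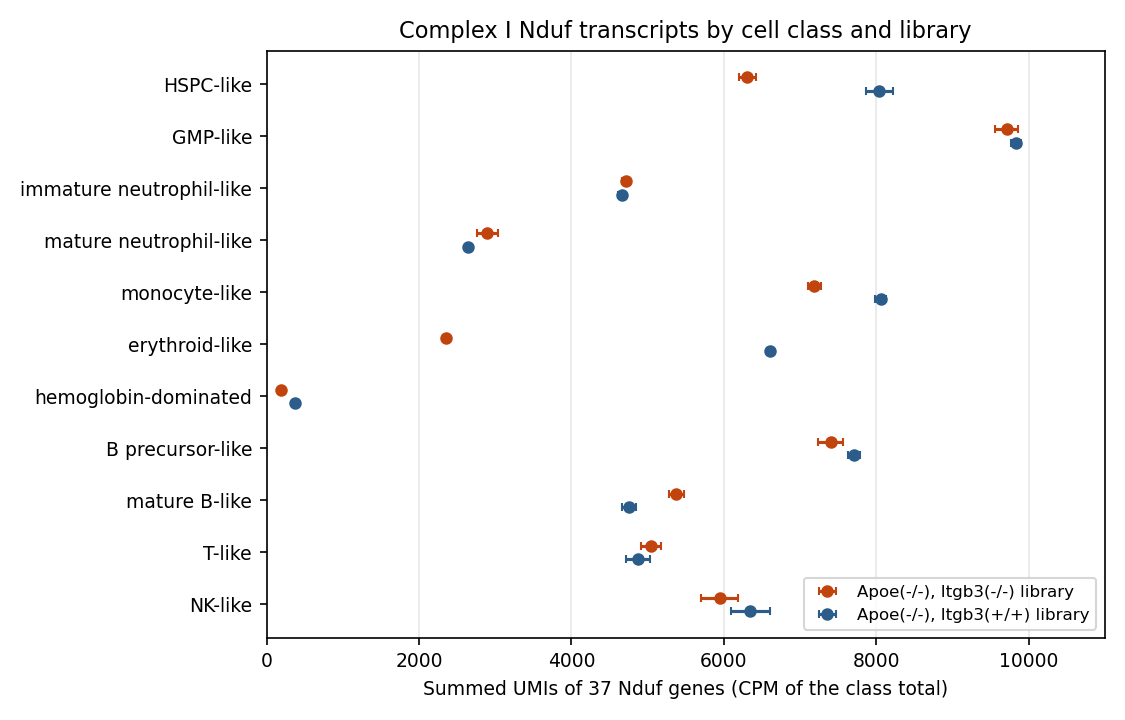
Summed CPM of the 37 Nduf genes (x axis) in 11 cell classes (y axis) for the Apoe(-/-), Itgb3(-/-) and the Apoe(-/-), Itgb3(+/+) library; points are sums over all cells of a class and bars exact Poisson 95% intervals. GMP-like cells are highest in both libraries at 9712 and 9831 CPM, and erythroid-like cells lie at 2353 and 6605 CPM.

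The level of the Nduf genes varied several-fold between cell types in both libraries. Granulocyte-monocyte progenitor-like (GMP-like) cells, the dividing precursors of neutrophils and monocytes, were highest in both, at 9712 CPM in 37 null-labelled and 9831 CPM in 432 control-labelled cells. In the control-labelled library they were followed by monocyte-like cells at 8058 CPM (7982 to 8135) and HSPC-like cells, named for markers of stem cells and early progenitors, at 8041 CPM (7871 to 8215), neighbours whose intervals overlap, then B precursor-like cells at 7705 CPM and erythroid-like cells at 6605 CPM. T-like cells at 4870 CPM (4715 to 5029) and mature B-like cells at 4758 CPM (4668 to 4849) could not be ordered against each other, and mature B-like and immature neutrophil-like cells at 4660 CPM (4615 to 4704) overlapped as well. Mature neutrophil-like cells were at 2646 CPM. In the null-labelled library the order among classes of 50 or more cells was B precursor-like at 7402 CPM (7241 to 7564), monocyte-like at 7189 CPM (7103 to 7277), HSPC-like at 6308 CPM, mature B-like at 5377 CPM, T-like at 5045 CPM, immature neutrophil-like at 4715 CPM, plasma-like at 4309 CPM, mature neutrophil-like at 2893 CPM and erythroid-like at 2353 CPM. B precursor-like and monocyte-like cells overlapped at the top, and erythroid-like cells, in the upper part of the control-labelled order, stood below neutrophils here. Both orders count all UMIs, of which hemoglobin made up 46.6% and 28.2% in erythroid-like cells. Without hemoglobin and mitochondrial UMIs these cells were at 4520 CPM and 9618 CPM. On that scale null-labelled mature neutrophil-like cells were lower (2942 CPM) and immature ones higher (4833 CPM). Control-labelled monocyte-like cells were lower, at 8602 CPM.

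Along the neutrophil stages the members fell together within each library. From GMP-like to immature neutrophil-like cells, which make secondary granule proteins, the sum was 2.06-fold (2.02 to 2.099) and 2.11-fold (2.09 to 2.13) lower. From GMP-like to mature neutrophil-like cells it was 3.36-fold lower (3.19 to 3.53) and 3.71-fold lower (3.65 to 3.78). The null-labelled values rest on 37 GMP-like cells. At the mature stage 36 of 36 members were below GMP-like cells in both libraries, 28 and 31 of them by 2-fold or more, where 39.8% and 45.1% of all genes tested were 2-fold lower, and no member was 2-fold higher against 27.0% and 23.8%. At the immature stage the counts were 22 and 24 of 36 against 41.0% and 37.4%, with none higher against 10.9% and 9.66%. Members differed in how far they fell: Ndufa12, an accessory subunit of the N module, was 5.42-fold and 5.47-fold lower at the immature stage, while Ndufb7 (1.01 and 0.907 of the GMP-like level) and Ndufv3 (0.882 and 0.943), a small accessory subunit of the N module, stayed near it. The null-labelled mature neutrophil-like cells were 96 cells of 1 sub-cluster led by Cxcl2 and Cd14, and no control-labelled cell lay in it.

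The B lineage showed a smaller fall between stages. Sub-clusters of 227 null-labelled and 2 control-labelled cells that scored highest for B precursor markers were led by other genes and stayed unnamed, beside 69 null-labelled B precursor-like and 346 mature B-like cells, so the null-labelled B stages are only part of that lineage and what the unnamed cells would change was not tested. Mature B-like cells were below B precursor-like cells, which rearrange their immunoglobulin genes and divide, at 5377 CPM against 7402 CPM and, in the control-labelled library, at 4758 CPM against 7705 CPM. In this contrast 5 of 36 members in the null-labelled library and 7 of 36 in the control-labelled library were 2-fold lower, beside 11.6% and 12.2% of all genes, and none was 2-fold higher, beside 11.5% and 9.01%. Ndufs5, an accessory subunit of the membrane arm on its intermembrane side, was the most lowered in both, 2.24-fold in each.

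Between the libraries, most classes differed little in the sum. Immature neutrophil-like cells were at 4715 CPM and 4660 CPM, a ratio of null-labelled over control-labelled of 1.01 (0.998 to 1.03). T-like cells were at 5045 CPM and 4870 CPM, a ratio of 1.04 (0.993 to 1.08). Both intervals span 1. Null-labelled B precursor-like cells were 1.04-fold lower (1.02 to 1.07), monocyte-like cells 1.12-fold lower (1.10 to 1.14) and HSPC-like cells 1.27-fold lower (1.24 to 1.31), whereas mature B-like cells were 1.13-fold higher (1.10 to 1.16) and mature neutrophil-like cells 1.09-fold higher (1.04 to 1.15). With TMM factors the log2 ratio of B precursor-like cells turned from -0.06 to 0.13 and that of mature neutrophil-like cells from 0.13 to -0.12, so neither has a direction that holds. That of monocyte-like cells moved from -0.16 to -0.0071, with 18 members lower and 18 higher, so their difference depends on the scaling. In mature B-like cells free RNA, estimated from hemoglobin in cells that should lack it, would carry 21.9 CPM and 1525 CPM of Nduf transcripts, and with it subtracted the log2 ratio moved from 0.18 to 0.32. Null-labelled cells were the deeper ones in all these classes, with medians of 5896 and 2252 UMIs in mature B-like cells. The 8 mature B markers summed to 1081 CPM and 5396 CPM in those cells, 6 and 8 of them at 20 CPM or more. Marker sums were also lower in null-labelled monocyte-like cells (1684 CPM and 5534 CPM, 7 of 7 at 20 CPM in both) and HSPC-like cells (642.5 CPM and 1280 CPM, 6 and 7 of 8). They were lower in every other named class compared as well, such as mature neutrophil-like (5581 CPM and 10436 CPM), T-like (3275 CPM and 5334 CPM) and immature neutrophil-like cells (113415 CPM and 128559 CPM). The part of these marker levels in the results was not tested.

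Gene by gene, few members were 2-fold apart in these classes. No member was 2-fold lower or higher in immature neutrophil-like cells (36 tested, 8.82% and 9.84% of all genes), in monocyte-like cells (14.1% and 10.7%), in B precursor-like cells (9.94% and 5.83%) or in T-like cells (10.9% and 8.8%). In HSPC-like cells 1 of 36 was lower (background 8.88%) and none higher (8.6%): Ndufb2, with 142 UMIs (77.9 CPM) and 181 UMIs (172.7 CPM), 2.22-fold lower (1.77 to 2.78). In mature B-like cells 1 of 36 was lower (12.7%) and 1 higher (10.9%). The lower one was Ndufa13, a membrane-arm subunit also known as GRIM-19, with 276 UMIs (124.9 CPM) and 629 UMIs (280.8 CPM), 2.25-fold lower (1.95 to 2.6), and the higher one was Ndufs3. In mature neutrophil-like cells, where 31 members passed, 3 were lower (11.0%) and 5 higher (24.0%), and the ends among these were Ndufb5, with 7 UMIs and 190 UMIs, a ratio of 0.408 (0.162 to 0.856), and Ndufa5, with 28 UMIs (46.6 CPM) and 77 UMIs (11.6 CPM), a ratio of 4.02 (2.51 to 6.27). Next to the top was Ndufa11 of the proximal membrane arm, with 61 UMIs and 220 UMIs, at 3.07 (2.27 to 4.09). Ndufs8, with 2 UMIs (3.33 CPM) and 121 UMIs (18.2 CPM), did not reach the mean of 20 CPM and was not among the members compared.

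**Figure D2:**
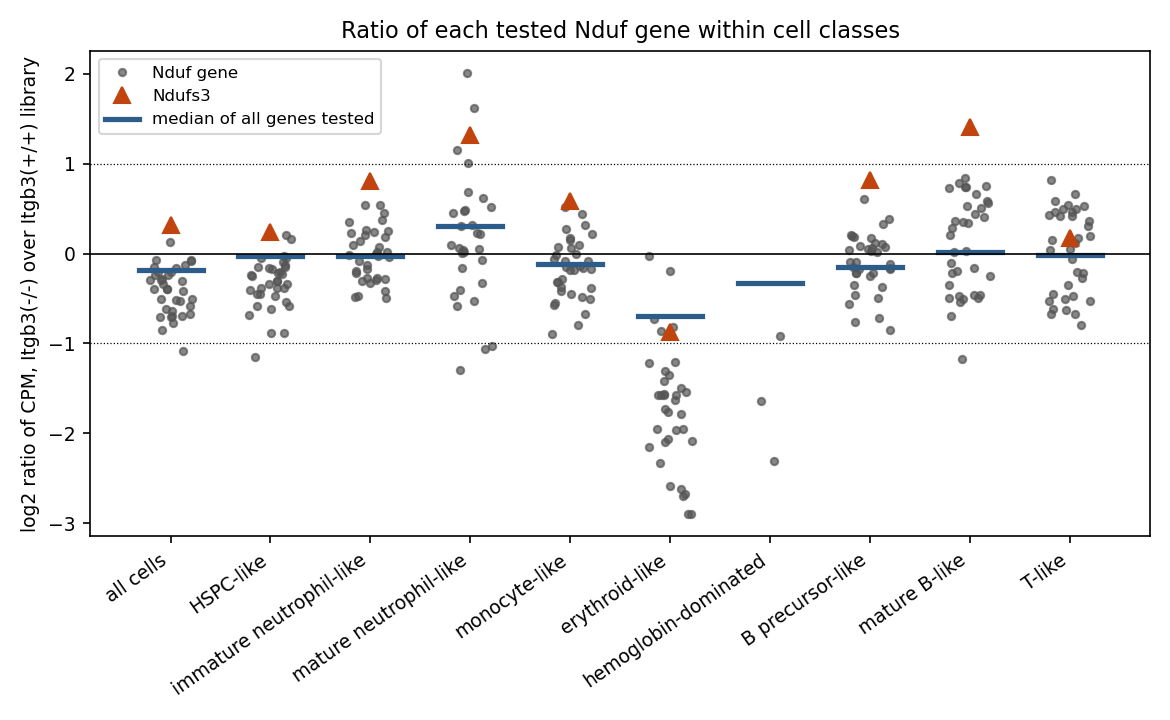
The log2 ratio of CPM, null-labelled over control-labelled (y axis), of each tested Nduf gene in all cells and in 9 classes (x axis); grey points are genes, the triangle is Ndufs3 where it passed the filter, the blue bar is the median of all genes tested and dotted lines mark 2-fold. In erythroid-like cells the members' median is -1.60 against -0.69 for all genes, with Ndufa6 (-0.03) and Ndufb11 (-0.20) above the blue bar, and in the other classes with 31 or more members tested they lie on both sides of it.

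Other members at the ends of a class repeated across classes. Ndufa9 was among the lowest pair in HSPC-like, B precursor-like, mature B-like and T-like cells, with ratios of 0.541 (0.405 to 0.722), 0.588 (0.440 to 0.773), 0.617 (0.455 to 0.832) and 0.628 (0.399 to 0.983). Ndufs4, an N module subunit whose loss in mice gives a fatal encephalopathy, was among the highest pair in HSPC-like cells at 1.15 (0.942 to 1.41), an interval that spans 1, and in monocyte-like cells at 1.43 (1.30 to 1.58), with 834 UMIs (227.9 CPM) and 843 UMIs (159.2 CPM). Ndufb11, of the distal membrane arm, was the lowest in monocyte-like cells, with 825 UMIs (225.5 CPM) and 2219 UMIs (419.1 CPM), 1.86-fold lower (1.71 to 2.02). In mature B-like cells Ndufa7 followed Ndufs3 at the top, with 754 UMIs (341.2 CPM) and 427 UMIs (190.6 CPM), a ratio of 1.79 (1.59 to 2.02). In T-like cells the highest were Ndufb7 at 1.76 (1.45 to 2.17) and Ndufb8 at 1.58 (1.21 to 2.07), and the lowest was Ndufa13 at 0.577 (0.477 to 0.696). In B precursor-like cells Ndufv1 was next to the top at 1.52 (1.23 to 1.86) and Ndufb2 at the bottom at 0.554 (0.428 to 0.708). In immature neutrophil-like cells the ends were Ndufs8 at 0.708 (0.605 to 0.829), Ndufb3 of the distal membrane arm at 0.714 (0.659 to 0.774) and Ndufa12 at 1.46 (1.28 to 1.66), below Ndufs3. In CPM, a few members lay below 1 in every class in which they were tested: Ndufa13, Ndufc1 and Ndufs5 in 8 of 8, and Ndufb2, Ndufa9 and Ndufs8 in 7 of 7. No member was 2-fold apart in most classes, and the most was Ndufa13 in 3 of 8.

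In CPM, erythroid-like cells had the largest difference of the classes compared; with TMM factors that of hemoglobin-dominated cells, at -0.79, was larger than theirs, at -0.41. Erythroid-like cells gave 13545 Nduf UMIs in 552 null-labelled cells (2353 CPM) and 91113 UMIs in 1481 control-labelled cells (6605 CPM), 2.81-fold lower with the null label (2.76 to 2.86). All 36 tested members were below equal in CPM (30 with TMM factors), 30 of them by 2-fold or more and none 2-fold higher, where 39.5% of the 3625 genes tested were 2-fold lower and 9.19% 2-fold higher. The members' median log2 ratio was -1.60 and that of all genes -0.69, a gap of -0.91. The 8 erythroid markers were all at 20 CPM or more in both libraries and summed to 5841 CPM and 6159 CPM. Hemoglobin made up 46.6% of UMIs in these null-labelled cells and 28.2% in the control-labelled ones, which lowers every other gene in CPM. With TMM factors, which move the median of all genes by 1.17 to 0.48, the sum was lower by 0.41 on the log2 scale, 10 members were 2-fold lower and 1 higher, against 10.3% and 32.2% of all genes, and the share of lower calls among all genes went from 81.1% to 24.1%. Fewer members passed 2-fold under TMM, and their median log2 ratio was then -0.53.

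Every group of subunits was lower in CPM in null-labelled erythroid-like cells. The group folds are given in CPM only. With the TMM factors of this class, 0.688 and 1.45, each fold would be smaller, so their size depends on the scaling. The 7 core genes summed to 287.1 CPM and 742.4 CPM, 2.59-fold lower, with 5 of 7 past 2-fold. The N module accessory genes were at 539 CPM and 1142 CPM, 2.12-fold lower with 5 of 7. Ndufa5 and Ndufa9 of the Q module and its junction were at 59.8 CPM and 238.4 CPM, 3.99-fold lower with 2 of 2. The proximal membrane arm was at 380.3 CPM and 1281 CPM, 3.37-fold lower with 8 of 9, and the distal membrane arm at 880.4 CPM and 2502 CPM, 2.84-fold lower with 9 of 10. Ndufa4 had 1188 UMIs (206.4 CPM) and 9650 UMIs (699.6 CPM), 3.39-fold lower (3.19 to 3.60).

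Single members spread from a ratio near 1 to more than 7-fold lower. Ndufb2 had 103 UMIs (17.9 CPM) and 1839 UMIs (133.3 CPM), 7.45-fold lower (6.11 to 9.18). Ndufc1, of the proximal membrane arm, had 121 UMIs (21.02 CPM) and 2153 UMIs (156.1 CPM), 7.43-fold lower (6.18 to 8.99). These 2 have the last pair of promoter stretches above. Next came Ndufs8 at 6.48-fold (4.97 to 8.61), Ndufa12 at 6.38-fold (5.34 to 7.68), Ndufs5 at 6.13-fold (5.09 to 7.45), Ndufb5 at 5.996-fold (4.98 to 7.28) and Ndufs7 at 5.02-fold (4.29 to 5.90). They come from the core, the N module and both parts of the membrane arm. At the other end Ndufa6, an N module subunit of the LYR protein family, had 1097 UMIs (190.6 CPM) and 2682 UMIs (194.4 CPM), a ratio of 0.98 (0.913 to 1.05) that spans 1. Ndufb11, X-linked and mutated in people with sideroblastic anemia, had 1190 UMIs (206.7 CPM) and 3272 UMIs (237.2 CPM), a ratio of 0.871 (0.815 to 0.932). Just outside the 2-fold line were Ndufa3 at 1.82-fold and Ndufs3 at 1.83-fold lower, and just inside were Ndufv1 at 2.31-fold and Ndufa1 at 2.33-fold. The 6 members short of 2-fold (Ndufa6, Ndufb11, Ndufa7, Ndufv2, Ndufa3 and Ndufs3) lay above 1 with TMM factors, at 2.07, 1.84, 1.28, 1.20, 1.16 and 1.15, while the other 30 stayed below 1.

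**Figure D3:**
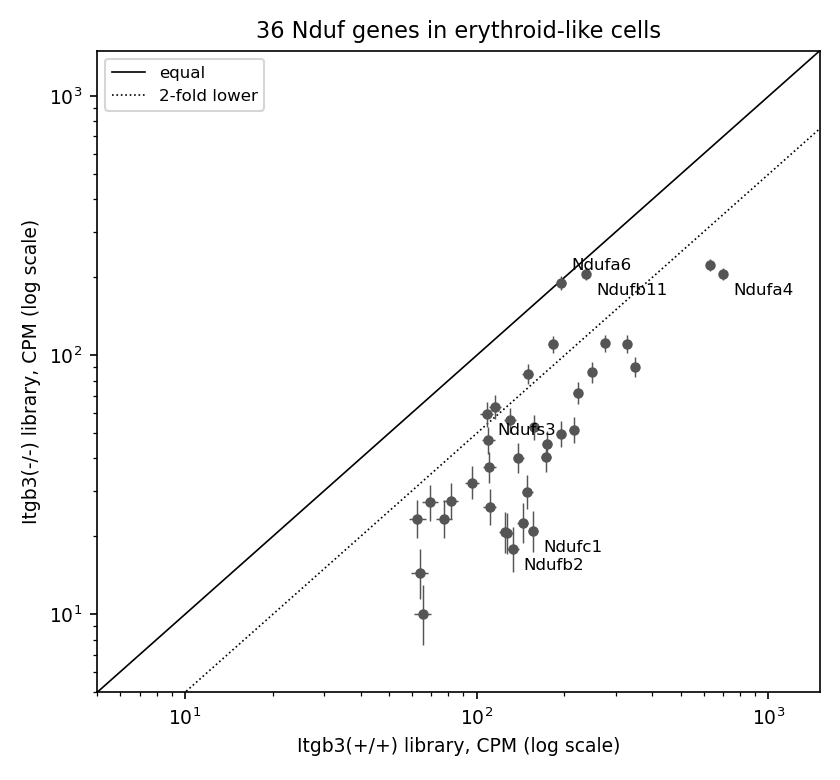
CPM of the 36 detected Nduf genes in erythroid-like cells, control-labelled library on the x axis and null-labelled library on the y axis, both on log scales; bars are exact Poisson 95% intervals, the solid line marks equal levels and the dotted line 2-fold lower. Ndufa6 and Ndufb11 lie near the solid line, and Ndufb2 and Ndufc1 lie farthest below it.

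The same cells were low in other respiratory genes and also in genes outside respiration: 4 of 5 tested glycolysis genes were 2-fold lower, with a sum of 289.9 CPM and 852.1 CPM, 2.94-fold lower. Among the mt-Nd genes, which encode the mitochondrially made core of complex I, 6 of 6 tested were 2-fold lower, with a sum of 558.5 CPM and 4995 CPM, 8.94-fold lower, while in all cells together the sum was 4002 CPM and 5502 CPM, 1.37-fold lower. Complex II had 4 of 4 nuclear genes 2-fold lower, complex III 7 of 9, complex IV 5 of 10 and complex V (ATP synthase) 13 of 15, beside the 39.5% of all genes, and 10 of 11 citric acid cycle genes were lower. Among nuclear genes of complexes I to V, the Nduf share was 26.5% (26.1 to 26.8) and 31.0% (30.8 to 31.2) in erythroid-like cells, a share that needs no scaling. In all cells it was 31.1% (31.01 to 31.3) and 32.2% (32.1 to 32.3). The lower share was not limited to erythroid-like cells: it was 30.2% (29.7 to 30.7) and 33.3% (32.7 to 33.8) in mature B-like cells, where the sum was higher, 29.5% (28.8 to 30.1) and 31.9% (31.1 to 32.8) in T-like cells, and 31.6% (31.1 to 32.2) and 31.8% (31.5 to 32.1) in B precursor-like cells, whose intervals overlap. Of the 15 genes for complex I assembly factors none passed the filter in erythroid-like cells, and their sum was 47.6 CPM and 195.5 CPM. Bnip3l, which encodes the receptor that tags mitochondria for removal in maturing red cells, was at 501.5 CPM and 401.0 CPM, a ratio of 1.25. The interferon-response genes were at 17956 CPM and 866.6 CPM in these cells, with 18 of 18 2-fold higher. They were also higher in classes where the Nduf sum differed little. Their sum was 9322.5 CPM and 715.55 CPM in immature neutrophil-like cells and 3847 CPM and 219.2 CPM in B precursor-like cells. In T-like cells it was 2239 CPM and 461.3 CPM. The part of these genes in the erythroid Nduf result was not tested.

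Hemoglobin content stands for how far a red cell has matured, so erythroid-like cells and hemoglobin-dominated cells (unnamed sub-clusters with over 60% hemoglobin UMIs) were split by the hemoglobin share of each cell and CPM was taken over UMIs without hemoglobin. Under 20%, 59 null-labelled cells gave 7054 CPM (6884 to 7226) and 361 control-labelled cells 10455 CPM (10376 to 10534), 1.48-fold lower. From 20 to 60%, 263 and 674 cells gave 3572 CPM (3478 to 3667) and 7464 CPM (7363 to 7566), 2.09-fold lower. Over 60%, 594 and 904 cells gave 2106 CPM (2017 to 2196) and 3821 CPM (3699 to 3946). Over all UMIs these are 372.4 CPM and 761.6 CPM, where the free RNA estimate for red cells is 90.3 CPM and 722.3 CPM. That estimate was not measured in red cells but is the median over other classes, and its profile was taken from all barcodes. It exceeds the whole control-labelled level of hemoglobin-dominated cells (370.1 CPM), so it is too high there. How much of the control-labelled level over 60% is free RNA is not known, and no direction between the libraries is read from that range. The sum fell with hemoglobin in both libraries and was lower in the null-labelled library in the first and second ranges. The Nduf share of nuclear respiratory UMIs also fell, from 28.8% to 24.4% and 22.5% in the null-labelled and from 31.5% to 30.03% and 25.8% in the control-labelled library.

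**Figure D4:**
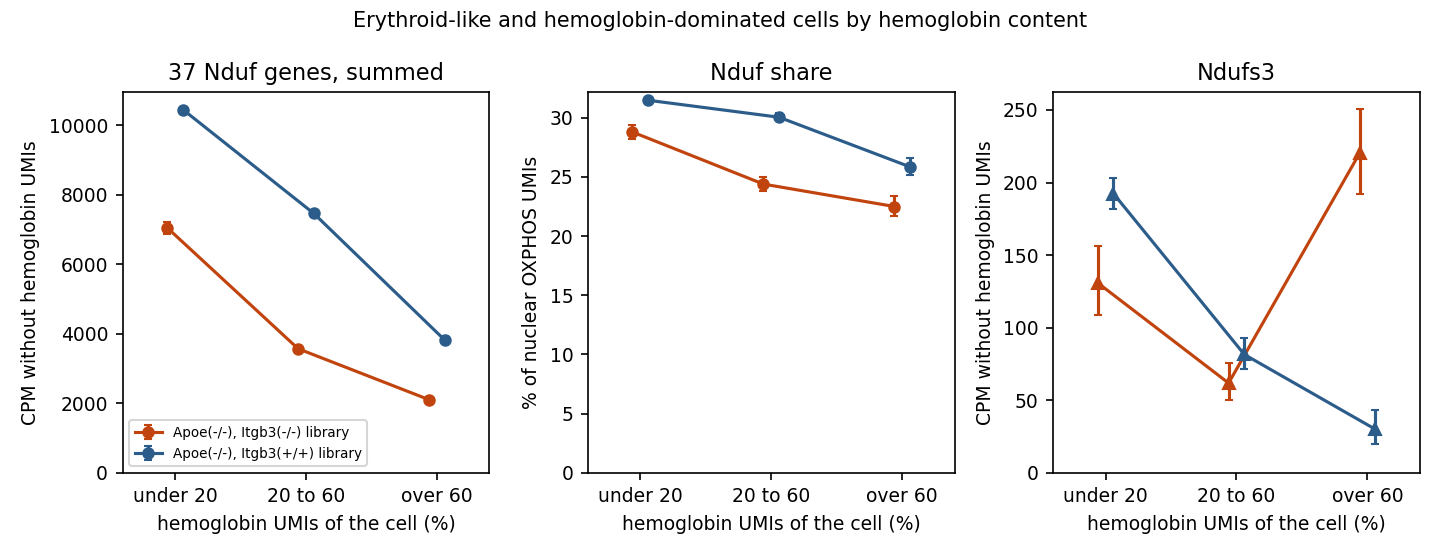
Erythroid-like and hemoglobin-dominated cells in 3 ranges of hemoglobin share (x axis, % of the cell's UMIs) in both libraries: summed CPM of the 37 Nduf genes over UMIs without hemoglobin (left), Nduf UMIs as % of nuclear UMIs of respiratory complexes I to V (middle) and Ndufs3 CPM over UMIs without hemoglobin (right). Bars are exact 95% intervals; the sums and shares fall to the right in both libraries, whereas Ndufs3 over 60% hemoglobin lies at 220.1 CPM (null-labelled) against 30.04 CPM.

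Within these ranges, members 2-fold lower in the null-labelled library numbered 11 of 36 under 20% hemoglobin (background 18.4%) and 25 of 36 from 20 to 60% (26.4%). Over 60% they numbered 12 of 28 (28.3%), against a control-labelled level near the free RNA estimate. None was 2-fold higher in the first and second ranges (10.4% and 12.2%). In the lowest range Ndufs5 was 3.099-fold and Ndufb2 3.07-fold lower, and Ndufa6 was higher, with 408 UMIs (437.8 CPM without hemoglobin) and 1777 UMIs (275.6 CPM), a ratio of 1.59 (1.42 to 1.77). In the middle range Ndufs8 was 7.13-fold and Ndufb2 6.82-fold lower, with Ndufa6 at a ratio of 1.31 (1.17 to 1.46) and Ndufb11 at 1.19 (1.08 to 1.32). In the highest range Ndufb7 was lowest, with 16 UMIs and 117 UMIs, and no fold is read from it.

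The members fell at unequal rates as hemoglobin rose. Over 60% against under 20%, 31 of 36 in the null-labelled and 29 of 36 in the control-labelled library were 2-fold lower, where 54.7% and 58.5% of all genes were, and none 2-fold higher (19.7% and 18.1%). Already from 20 to 60% the counts were 25 and 13 of 36 (19.6% and 19.7% of all genes), with none higher (14.4% and 18.1%). Control-labelled levels over 60% may hold free RNA, to an extent that is not known. The steepest was Ndufb5, a distal membrane arm subunit, which went from 106 to 14 to 0 UMIs in the null-labelled library, at least 38.7-fold lower against a floor of 3 UMIs in that range, and from 1599 to 118 to 11 UMIs (248.0, 42.02 and 11.4 CPM without hemoglobin) in the control-labelled library, 21.8-fold lower. In each library 1 member did not fall. Ndufb11 rose in the control-labelled library from 305.8 to 344.7 and 467.2 CPM without hemoglobin, 1.53-fold, and was at 374.5, 411.6 and 287.6 CPM in the null-labelled library. Ndufs3 rose in the null-labelled library, as described next.

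Ndufs3 (ENSMUSG00000005510, chromosome 2 from 90894634 to 90904827 on the minus strand, GRCm38, GENCODE vM21) had the highest ratio of null-labelled over control-labelled of all tested members in most classes. It overlaps Kbtbd4 on the opposite strand, and the sources used here do not say whether counting used strand. Over all cells it had 3333 UMIs (99.3 CPM) and 4715 UMIs (79.9 CPM), a ratio of 1.24 (1.19 to 1.30). In mature B-like cells it had 485 UMIs (219.5 CPM) and 185 UMIs (82.6 CPM), 2.66-fold higher (2.24 to 3.17). In B precursor-like cells it had 228 UMIs (208.1 CPM) and 571 UMIs (118.3 CPM), 1.76-fold higher (1.501 to 2.05). In monocyte-like cells it had 547 UMIs (149.5 CPM) and 527 UMIs (99.5 CPM), 1.502-fold higher (1.33 to 1.70), and in immature neutrophil-like cells 372 UMIs (46.3 CPM) and 238 UMIs (26.4 CPM), 1.75-fold higher (1.48 to 2.07). In HSPC-like cells, with 142.7 CPM and 121.2 CPM, the ratio of 1.18 (0.948 to 1.47) spans 1. In mature neutrophil-like cells it had 18 UMIs (29.98 CPM) and 80 UMIs (12.0 CPM), a ratio of 2.49 (1.405 to 4.19). It was the highest of the tested members by ratio in all cells and in HSPC-like, immature neutrophil-like, monocyte-like, B precursor-like and mature B-like cells, while it was inside the range of the others in mature neutrophil-like, T-like and erythroid-like cells. Under the 8 other settings tried, its ratio over all cells stayed between 1.20 and 1.67, and in mature B-like cells between 2.00 and 4.67.

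**Figure D5:**
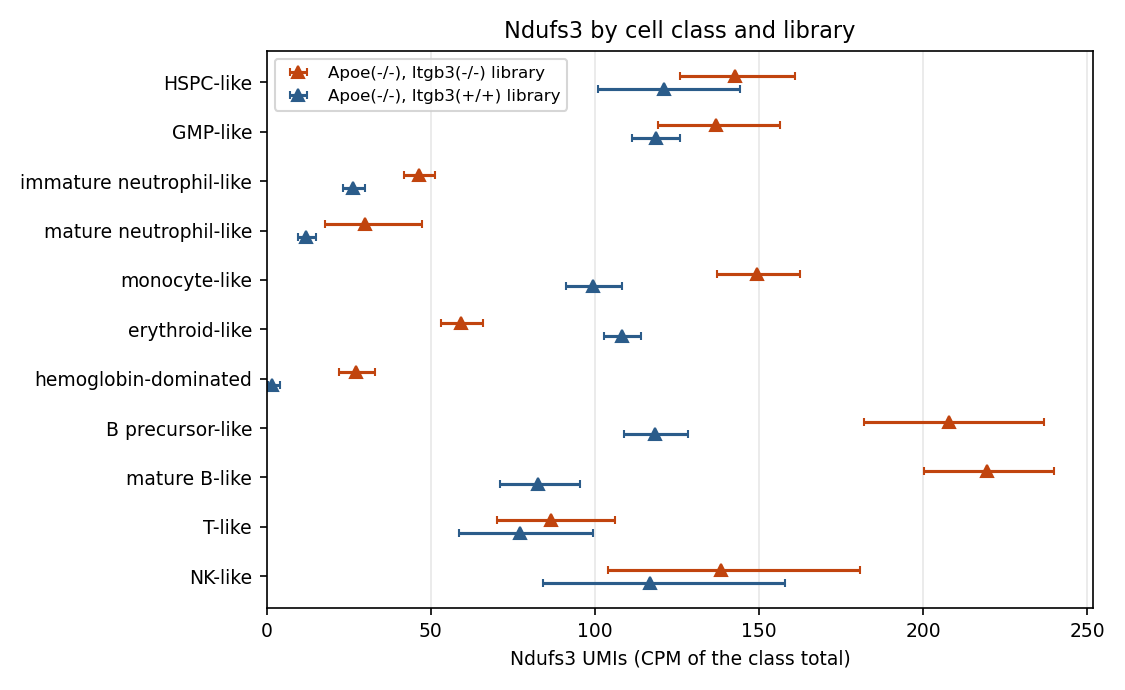
Ndufs3 CPM (x axis) in 11 cell classes (y axis) for both libraries, with exact Poisson 95% intervals as bars. The null-labelled triangles lie to the right in B precursor-like (208.1 against 118.3 CPM), mature B-like, monocyte-like and both neutrophil-like classes, and to the left in erythroid-like cells (59.2 against 108.4 CPM).

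In red cells Ndufs3 differed by hemoglobin range. Under 20% hemoglobin it had 122 UMIs (130.9 CPM without hemoglobin) and 1241 UMIs (192.5 CPM), a ratio of 0.680 (0.560 to 0.820), and from 20 to 60% it had 96 UMIs (61.8 CPM) and 229 UMIs (81.5 CPM), a ratio of 0.758 (0.591 to 0.966). Over 60% it had 225 UMIs (220.1 CPM) and 29 UMIs (30.04 CPM), a ratio of 7.33 (4.96 to 11.2), and it was the only member 2-fold higher there (background 20.4%). Over all UMIs these are 38.9 CPM and 5.99 CPM, where the free RNA estimate is 1.92 CPM and 9.38 CPM. The control-labelled level is under that estimate, which is thus too high for Ndufs3 here, and the ratio's size is not read as a fold. Those UMIs lay in 99 of 594 cells (16.7%, exact binomial interval 13.8 to 19.9) from 13 sub-clusters, with at most 11 in 1 cell, and in 29 of 904 control-labelled cells (3.21%, 2.16 to 4.57) from 12 sub-clusters, with at most 1. Median depths were 9858 and 4988 UMIs per cell. In mature B-like cells 238 of 346 (68.8%) and 153 of 825 (18.5%) cells held an Ndufs3 UMI at median depths of 5896 and 2252, where free RNA would carry 0.465 CPM and 19.8 CPM. The free RNA estimate, for red cells the median over the other classes, would carry 1.92 CPM and 9.38 CPM of Ndufs3 into hemoglobin-dominated cells. Found there were 102 UMIs (27.1 CPM) and 4 UMIs (1.56 CPM). There too the control-labelled level is under the estimate, which is too high for these cells, and the null-labelled level is above it.

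Hemoglobin-dominated cells set a limit for the sum as well. They gave 726 Nduf UMIs in 364 null-labelled cells (192.9 CPM) and 951 UMIs in 458 control-labelled cells (370.1 CPM), 1.92-fold lower (1.74 to 2.12). Only 3 members passed the filter, 2 of them 2-fold lower and none higher (background 27.0% and 28.2%). Of the members with 30 UMIs or more, Ndufa4 (41 UMIs and 138 UMIs, a ratio of 0.203, 0.140 to 0.289) and Ndufa11 (0.289, 0.129 to 0.605) were lowest, and Ndufb6, a distal membrane arm subunit (1.59, 0.699 to 3.95), came below Ndufs3 at the top. The free RNA estimate would carry 90.3 CPM and 722.3 CPM, in the control-labelled library more than the whole level, so it is too high for these cells. With it subtracted the log2 ratio turned from -0.94 to 1.59. No direction is read from these cells. In erythroid-like cells the same estimates stand against 2353 CPM and 6605 CPM, and the log2 ratio moved from -1.49 to -1.52.

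With each cell thinned to 1000 UMIs, 124 of 543 null-labelled erythroid-like cells (22.8%, 19.4 to 26.6) and 862 of 1469 control-labelled ones (58.7%, 56.1 to 61.2) held 3 or more Nduf UMIs, leaving out 9 and 12 shallower cells. The 1000 UMIs include hemoglobin, which made up 46.6% and 28.2% of UMIs in these cells. Depth in the other UMIs is therefore not matched between the libraries. Without thinning, the median number of members detected per erythroid-like cell was 7 and 13. In mature B-like cells the thinned shares were 88.2% (84.3 to 91.4) and 82.3% (79.5 to 84.9), leaving out 0 and 16 cells, with 19 and 9 members detected unthinned.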

How the data were processed

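Single-cell 3′ libraries of bone marrow, 1 per genotype, were analysed from raw UMI counts per gene and barcode that the authors deposited. Reads had been processed with Cell Ranger 3.0 and Seurat against mm10, per the submitters' processing notes. The members, gene lists, class sizes compared (50 cells or more in both libraries) and the hemoglobin-dominated class were chosen with earlier results of these data known. Barcodes with 200 genes or more and at most 10% mitochondrial UMIs were kept and doublets removed with Scrublet in scanpy 1.11.5 (71 and 690 barcodes). Cells were clustered (2000 variable genes, 30 components, 15 neighbours, Leiden at 1.0, then 0.5) without the respiratory genes, and clusters were named from marker lists. UMI counts were summed per class and library as CPM. Genes with 30 UMIs over both libraries and a mean of 20 CPM were compared at 2-fold. Poisson and conditional binomial 95% intervals are exact and cover counting error only; UMIs of 1 library are no replicates, so no p-value was computed. Members named, except 1 that is not reported here, are the core genes, Ndufa4 and Ndufa4l2, the highest and lowest 3 over all cells, and the highest and lowest 2 by ratio of each class; the other members named in red cells and along the stages were chosen after their values were seen. TMM factors came from edgeR 4.0.16. The other settings tried were totals without hemoglobin, mitochondrial and interferon genes, limits of 5% and 20% mitochondrial UMIs, doublets kept, means over cells, free RNA subtracted and cells thinned to 1000 UMIs. Coordinates are from GENCODE vM21, promoter sequences from RefSeq. The scripts were tested on simulated counts.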

Additional observations from a re-analysis of the deposited data

Results flagged for a closer look

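The summed Nduf log2 ratio, null-labelled over control-labelled, was -1.49 in erythroid-like cells and 0.18 in mature B-like cells, and each kept its sign under all 8 other settings tried. The difference between the classes was not tested, since each genotype is 1 library. Ndufs3 had a ratio of 0.680 in erythroid cells with under 20% hemoglobin and 7.33 in those with over 60%, opposite directions within 1 lineage whose difference was likewise not tested. Over 60% the control-labelled level, 5.99 CPM over all UMIs, is under the free RNA estimate of 9.38 CPM, which is thus too high there. The size of that ratio is not read as a fold.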

How the results depend on the processing

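No paired analysis was possible because each genotype is 1 library and no replicate could be left out. The values here are summed log2 ratios unless stated, and the cause of each move was not tested. In the settings as reported they were -0.39 over all cells, -0.35 in HSPC-like, 0.017 in immature and 0.13 in mature neutrophil-like, -0.16 in monocyte-like, -1.49 in erythroid-like, -0.94 in hemoglobin-dominated, -0.058 for B precursors, 0.18 for mature B and 0.051 for T-like cells, with 37 members 2-fold lower and 6 higher summed over classes. The negative sign over all cells and in HSPC-like, monocyte-like and erythroid-like cells and the positive sign in mature B-like cells held in all 8 other settings. In monocyte-like cells the value with TMM factors was only -0.0071, with 18 members lower and 18 higher, so no direction is read there under that scaling.

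With TMM factors they were -0.16 (all cells), 0.068 (immature neutrophil-like), -0.12 (mature neutrophil-like, turned), -0.0071 (monocyte-like), -0.41 (erythroid-like), -0.79 (hemoglobin-dominated), 0.13 (B precursor-like, turned) and 0.24 (mature B-like), and 17 members were 2-fold lower. In erythroid-like cells Ndufs3 (0.21), Ndufb11 (0.88), Ndufa7 (0.35), Ndufv2 (0.26) and Ndufa3 (0.21) turned. Ndufa6, whose interval spanned equal in CPM, moved from -0.03 to 1.05 there. TMM moved the median of all genes by 0.24 over all cells, -0.26 in mature neutrophil-like, 0.16 in monocyte-like, 0.17 in hemoglobin-dominated and 0.20 in B precursor-like cells, and the share of lower among calls from 61.9% to 39.2%, 31.5% to 47.1%, 56.8% to 45.05%, 49.0% to 40.6% and 63.04% to 42.3% there. With totals without hemoglobin, mitochondrial and interferon genes they were -0.29 (all cells), -1.04 (erythroid-like), -0.72 (hemoglobin-dominated), 0.063 (mature B-like) and -0.039 (T-like), and Ndufb11 in erythroid-like cells turned to 0.25. With a limit of 5% mitochondrial UMIs they were -0.42 (all cells), -0.58 (HSPC-like), -0.093 (immature neutrophil-like), -0.24 (monocyte-like), -1.20 (erythroid-like), -0.77 (hemoglobin-dominated), -0.14 (B precursor-like), 0.73 (mature B-like) and 0.11 (T-like), and 20 members were 2-fold higher. With a limit of 20% they were -0.43 (HSPC-like), -0.18 and 0.21 (immature and mature neutrophil-like) and -1.54 (erythroid-like). With doublets kept they were -0.37 (all cells), -0.15 and 0.015 (immature and mature neutrophil-like), -0.19 (monocyte-like), -1.54 (erythroid-like), -1.46 (hemoglobin-dominated) and 0.23 (mature B-like). As means over cells they were -0.26 (all cells), -0.45 (HSPC-like), -0.040 (immature neutrophil-like), -0.28 (monocyte-like), -1.37 (erythroid-like), 0.070 (B precursor-like, turned), 0.13 (mature B-like) and -0.044 (T-like). With free RNA subtracted they were -0.42 (all cells), 0.045 and 0.38 (immature and mature neutrophil-like), -1.52 (erythroid-like), 1.59 (hemoglobin-dominated, turned), 0.32 (mature B-like) and 0.15 (T-like), and 15 members were 2-fold higher. Thinned to 1000 UMIs they were -0.27 (all cells), -0.55 (HSPC-like), -0.064 (immature neutrophil-like), -0.30 (monocyte-like), -1.41 (erythroid-like), 0.063 (B precursor-like, turned), 0.088 (mature B-like) and -0.19 (T-like).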

Other observations

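Barcodes left out by the filters also held Nduf UMIs. Barcodes with under 200 genes, 1202 null-labelled and 3223 control-labelled at medians of 8907 and 3951 UMIs, held 66.4 CPM and 161.1 CPM of Nduf transcripts over UMIs without mitochondrial genes, against 4808 CPM and 6340 CPM in the cells kept. Barcodes with 200 genes or more and over 10% mitochondrial UMIs numbered 105 and 256. They held 3864 CPM (3623 to 4118) and 4699 CPM (4499 to 4905) of Nduf transcripts on that scale. Their mt-Nd UMIs per Nduf UMI were 13.7 and 10.8, against 0.856 and 0.896 in the cells kept, a ratio that the filter on mitochondrial UMIs itself sets in part.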
